A study of Mus musculus with 62 samples.

Results

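Csnk1d, Csnk1e, Gsk3b, Btrc and Fbxw11, a set of protein kinases and ubiquitin ligase subunits that act on circadian clock proteins, were followed in mouse suprachiasmatic nucleus (SCN), nucleus accumbens (NAc) and prefrontal cortex (PFC). They were chosen by name: of the 12483 gene rows found in either deposited count table, the 5 whose Ensembl identifier carries one of these symbols were taken, and all 5 had a row in both tables. The 62 libraries came from punches of frozen brain of 26 mice, with 19 libraries of the SCN, 26 of the NAc and 17 of the PFC, and each library was made from an individual animal. The mice were male and female C57BL/6J animals bred in house. Their tissue was taken at ZT6, in the light phase, about 4 weeks after circadian rhythm disruption (CRD) by repeated reversals of the light/dark cycle, or after a control paradigm with the light cycle unchanged. The labels speak of disruption in adolescence and in adulthood, whereas the study's methods describe the tissue of the adolescent experiment alone. They give the region and the mouse number of each library, but neither its light paradigm nor the sex of its mouse, so every group below mixes these and the comparisons are between regions and across libraries.

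In the molecular clock, the proteins PER and CRY build up over the day and repress the activators CLOCK and BMAL1, and the pace of the cycle depends on how fast PER and CRY are destroyed. Casein kinases 1 delta and epsilon, encoded by Csnk1d and Csnk1e, phosphorylate PER proteins, and mutations of either gene are known to change the period of the rhythm. The phosphorylated PER is bound by beta-TrCP, an F-box protein of the SCF ubiquitin ligase, which marks it for the proteasome. Btrc and Fbxw11 encode the paralogous forms of beta-TrCP. Gsk3b encodes glycogen synthase kinase 3 beta, which phosphorylates several clock proteins as well as beta-catenin, another beta-TrCP substrate. All of these are activities of proteins, and the data below are transcript counts.

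Csnk1d (ENSMUSG00000025162) lies on the minus strand of GRCm38 at chr11:120961749-120991330 and Csnk1e (ENSMUSG00000022433) on the minus strand at chr15:79417856-79455566. Gsk3b (ENSMUSG00000022812) is on the plus strand at chr16:38089001-38246084, Btrc (ENSMUSG00000025217) on the plus strand at chr19:45363734-45530013 and Fbxw11 (ENSMUSG00000020271) on the plus strand at chr11:32642724-32746816. All are annotated as protein-coding genes. Because the kinases and the F-box proteins each have a close paralog, the coding windows of 75 bases, the read length, in which the paralogs are most alike are shown here from GENCODE M21 transcripts, 5′ to 3′ on the coding strand, with the differing bases in capitals. The Csnk1d window is in exon 4 of its transcript at chr11:120973084-120973158 and the Csnk1e window in exon 5 at chr15:79426377-79426451.
Csnk1d: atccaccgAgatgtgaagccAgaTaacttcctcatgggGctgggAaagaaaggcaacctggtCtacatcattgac
Csnk1e: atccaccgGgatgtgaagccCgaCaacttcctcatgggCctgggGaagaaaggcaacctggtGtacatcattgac
The Btrc window is in exon 10 at chr19:45515909-45515983 and the Fbxw11 window in exon 9 at chr11:32735189-32735263.
Btrc: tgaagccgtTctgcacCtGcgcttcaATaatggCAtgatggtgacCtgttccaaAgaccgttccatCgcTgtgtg
Fbxw11: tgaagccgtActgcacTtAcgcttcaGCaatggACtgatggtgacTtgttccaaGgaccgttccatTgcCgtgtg
For Gsk3b, the paralog is Gsk3a, and the window spans the junction of exons 5 and 6, at chr16:38187925-38191585 for Gsk3b and chr7:25231684-25231850, on the minus strand, for Gsk3a.
Gsk3b: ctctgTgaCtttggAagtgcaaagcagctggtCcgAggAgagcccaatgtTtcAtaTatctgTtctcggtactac
Gsk3a: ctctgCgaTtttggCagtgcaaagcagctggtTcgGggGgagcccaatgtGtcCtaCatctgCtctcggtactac

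Even where they were most alike, Csnk1d and Csnk1e differed at 6 of 75 bases, Gsk3b and Gsk3a at 10, and Btrc and Fbxw11 at 11. The longest stretch of identical coding bases was 23 for the casein kinases, 17 for the glycogen synthase kinases and 22 for the F-box genes. None of the 75-base stretches of annotated Csnk1d, Gsk3b or Fbxw11 transcripts was found in a transcript of another gene. For Csnk1e, 120 of 6704 stretches matched the opposite strand of Gm16059, an antisense gene that overlaps it. For Btrc, 118 of 17224 stretches matched the opposite strand of Rpl6 and of Gm6136, Gm6807 and Gm7027. The strand setting of the counting is not given in the sources used here, so reads of those short parts cannot be told apart from reads of the opposite strand.

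SCN libraries held 16496666 to 35389742 counts, NAc libraries 28879724 to 60009482 and PFC libraries 31216225 to 50333579. Median shares of mt-Rnr1 and mt-Rnr2, which encode mitochondrial ribosomal RNA, were 38.2%, 49.4% and 46.6% of the counts in that order. SCN J1157 and SCN J1159 stood apart with 20.5% and 24.8%, where the whole SCN range reached 51.6%. Genes of nuclear ribosomal RNA held far more of the counts in the SCN, with a median of 16.2% (8.96% to 19.3%). The medians were 2.52% in the NAc and 3.79% in the PFC (2.32% to 5.02%). NAc J1159, with 13.3%, was high for its region, and SCN J1199 and SCN J1140 held transcripts of striatal neurons. The fits were repeated without these libraries. SCN J1165 held 1403 counts of Xist, the X-inactivation transcript of female cells, where the NAc and PFC libraries of that mouse number held 23 and 18, so it may not be a pair with them. Of 9 markers of SCN neurons, 9 had a row in the SCN table, with summed levels of 89.2 to 463 CPM, counts scaled to the library total, and 6 had no row for the other regions. The 5 striatal markers summed to 400.4 to 976 CPM in the NAc and 11.9 to 43.4 CPM in the PFC, and 5 cortical glutamatergic markers to 8.22 to 429 CPM and 712 to 845 CPM. The oligodendrocyte list of 9 markers summed to 450 to 3287 CPM in the SCN, 674 to 1598 CPM for the NAc and 147 to 445 CPM for the PFC, and the 6 astrocyte markers reached at most 2101, 998 and 944 CPM in these regions. These are tissue punches, in which fewer cells of a type and less RNA per cell cannot be told apart.

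Levels below are CPM after TMM scaling of the 11133 rows that the tables share, so that the regions can be set side by side. Counts of a single member in a single library ran from 353, for Csnk1e in the SCN, to 12737, for Gsk3b in the NAc, so that counting error was small beside the spread between libraries. Per kilobase of merged exon, Gsk3b and Fbxw11 had the highest medians and Btrc the lowest. The medians in the SCN were 18.4 CPM per kb for Fbxw11, 12.6 for Gsk3b, 8.17 for Csnk1d, 4.27 for Csnk1e and 2.96 for Btrc. In the NAc, Gsk3b came before Fbxw11, with medians of 20.0 and 15.5 CPM per kb, and in the PFC the medians of this pair were both 17.6. Within libraries, Gsk3b was above Fbxw11 per kb in 23 of 26 from the NAc, 9 of 17 from the PFC and 2 of 19 from the SCN. By CPM, Gsk3b was the higher one in every library. Its lowest values in the SCN, NAc and PFC were 98.3, 145 and 135, and the highest of Fbxw11 93.5, 90.1 and 89.0. Per kb, Fbxw11 was above Csnk1d in all 62 libraries, and Csnk1d above Csnk1e in 60 of them, with both exceptions in the PFC. By CPM, the PFC medians of the casein kinases went the other way, at 29.1 for Csnk1d and 34.8 for Csnk1e.

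**Figure D1:**
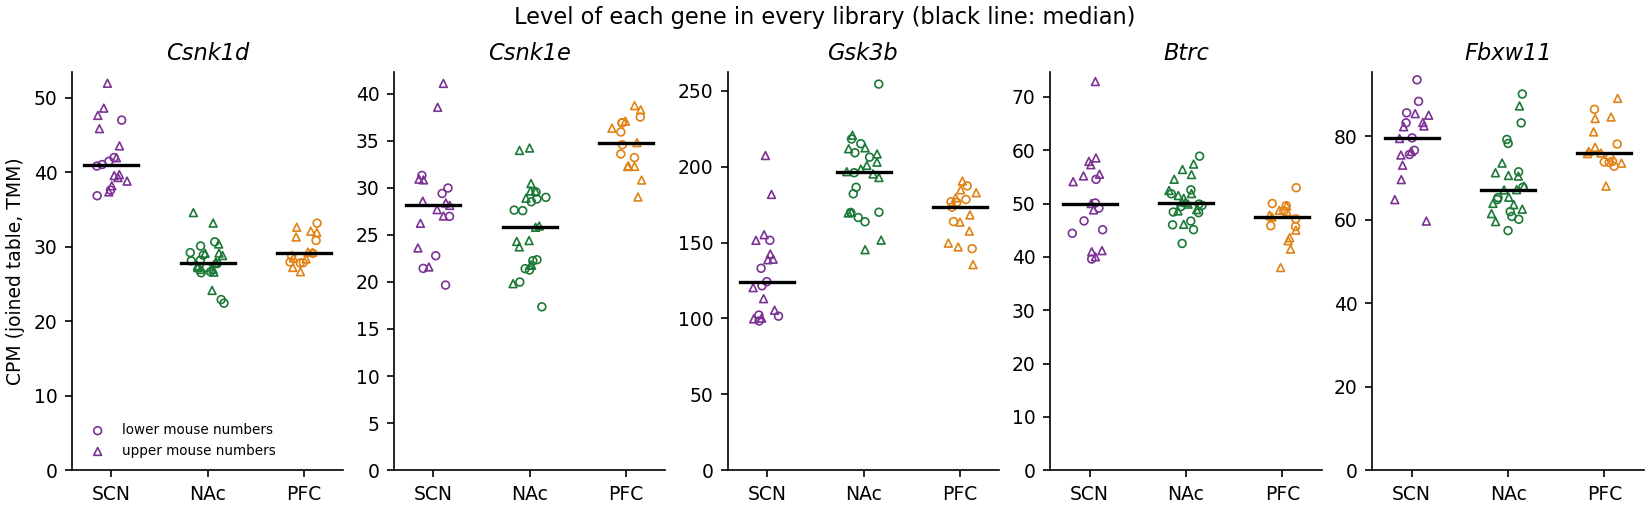
Level of Csnk1d, Csnk1e, Gsk3b, Btrc and Fbxw11 in CPM on the joined table, with a point for every library of the SCN (n = 19), NAc (n = 26) and PFC (n = 17); circles are mice of the lower and triangles of the upper range of mouse numbers, and black lines are medians. The SCN points of Csnk1d, from 36.9 CPM upward, lie above every NAc and PFC point, and the NAc points of Csnk1e fall mostly below the PFC points.

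Csnk1e was the member that differed most between the NAc and the PFC. Its NAc libraries lay between 17.4 and 34.2 CPM around a median of 25.9 CPM, and its PFC libraries between 29.0 and 38.7 CPM around 34.8 CPM. Of the 26 NAc libraries, 20 were below every PFC library and none was above the PFC median, and the NAc library was the lower one in 17 of 17 mice with both regions. The log2 difference, NAc minus PFC, was -0.43 (SE 0.063), which is 25.6% less, with an adjusted p of 9.3e-08 in edgeR's quasi-likelihood test with Benjamini-Hochberg adjustment. Within the lower range of mouse numbers the difference was -0.53, and within the upper range -0.35.

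The other members differed less. For a call, the study's thresholds were used, a fold of 1.2 or more at an adjusted p under 0.05. Csnk1e was the 1 of 5 members that met them, where 45.4% of the 11569 rows did, and 21.7% of rows were called and lower in the NAc. No member had regions without overlap, which 9.06% of shared rows had. The paralog Csnk1d had a median of 27.9 CPM in the NAc (22.4 to 34.6) and 29.1 CPM in the PFC (26.7 to 33.2). Its groups overlapped broadly, and its log2 difference of -0.074 (SE 0.039, approximate 95% interval -0.15 to 0.0028) did not pass edgeR's test, with an adjusted p of 0.096. Gsk3b leaned the other way, with a median of 196 CPM in the NAc (145 to 254) and 173 CPM in the PFC (135 to 190.5). Its log2 difference of 0.20 (SE 0.054) had an adjusted p of 0.0012 in edgeR's test, and the NAc library was the higher one in 15 of 17 mice. Its fold of 1.15 was under the limit.

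Both F-box genes passed the test of difference at folds under the limit, in opposite directions. Fbxw11 had a median of 67.1 CPM in the NAc (57.4 to 90.1) and 76.0 CPM in the PFC (68.0 to 89.0). Its log2 difference was -0.17 (SE 0.049) with an adjusted p of 0.0023 in edgeR's test, and 16 of 26 NAc libraries were below every PFC library, while 1, from J1019, was above them all. Btrc had medians of 50.1 CPM (42.5 to 58.9) and 47.5 CPM (38.0 to 53.0), with a log2 difference of 0.12 (SE 0.037) and an adjusted p of 0.0051 in edgeR's test. At an adjusted p under 0.05 and any fold, 4 of 5 members passed, against 63.1% of all rows. With the mouse number as a block, the log2 difference of Fbxw11 was -0.11 with an adjusted p of 0.063 in edgeR's test, and that of Csnk1d -0.10 with an adjusted p of 0.035. Within the lower range, Btrc differed by 0.013 and within the upper range by 0.19.

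**Figure D2:**
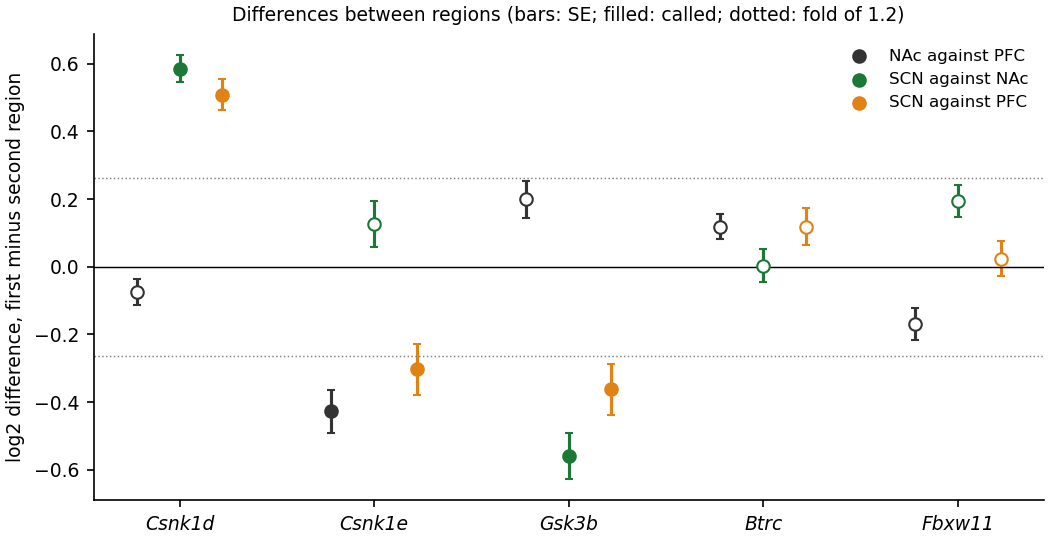
Log2 difference between regions for each member, first minus second region, with bars of 1 SE; filled points passed the adjusted p and the fold of 1.2, which is drawn as dotted lines. Csnk1d stands above the dotted line in both comparisons of the SCN, Gsk3b stands below it in both, and Csnk1e is below it in the comparisons with the PFC.

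Against the SCN, the casein kinases parted. Csnk1d lay between 36.9 and 52.0 CPM in the SCN, around a median of 41.1 CPM, and every SCN library was above every NAc and every PFC library. It was higher in the SCN by 0.59 on the log2 scale (SE 0.040, 50.1% more, adjusted p = 8.8e-21, edgeR) against the NAc and by 0.51 (SE 0.045, adjusted p = 5.9e-16, edgeR) against the PFC. The SCN library was the higher one in 19 of 19 mice with an NAc library and 12 of 12 mice with a PFC library, or 18 of 18 and 11 of 11 without J1165. Regions that do not overlap were found for 13.2% of rows between the SCN and NAc and for 20.7% between the SCN and PFC. In these comparisons 64.1% and 64.7% of rows were called, and 2 and 3 of the 5 members. Called rows were higher in the SCN in 33.1% and 33.7% of all rows and lower in 31.0% of all rows in either comparison. At any fold, 3 members passed against the NAc and 4 against the PFC, beside 78.0% and 76.1% of rows. The 2 comparisons share the SCN libraries.

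Csnk1e had a median of 28.1 CPM in the SCN, with a range of 19.7 to 41.1 CPM, and its libraries there overlapped with those of both other regions. Against the PFC it was lower in the SCN by 0.30 on the log2 scale (-0.30, SE 0.076, adjusted p = 2.8e-04, edgeR), with 9 of 12 mice lower. That call was not met with the mouse as a block (-0.25) or within the upper range of mouse numbers (-0.21), where the fold was under 1.2. Against the NAc the difference was 0.13 (SE 0.069, adjusted p = 0.087, edgeR). With the share of mt-Rnr1 and mt-Rnr2 as a covariate, added after the data were seen, it was -0.20 with an adjusted p of 0.0036 in edgeR's test, so its direction depends on that term.

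Gsk3b was lower in the SCN than in either other region. Around a median of 124 CPM, its SCN libraries reached from 98.3 to 207 CPM, and 14 of 19 SCN libraries were below every NAc library. The log2 difference was -0.56 (SE 0.068, adjusted p = 5.6e-11, edgeR) against the NAc, with 17 of 19 mice lower in the SCN. Against the PFC it was -0.36 (SE 0.075, adjusted p = 1.6e-05, edgeR), with 9 of 12 mice lower. The highest SCN values, 207 CPM in J1159 and the next in J1157, came from the libraries with the lowest share of mitochondrial ribosomal RNA. Without them the differences were -0.63 and -0.45. Within the upper range the difference from the PFC was -0.26 and missed the fold limit.

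Of the F-box genes, Fbxw11 had a median of 79.6 CPM in the SCN (59.7 to 93.5) and Btrc lay between 39.6 and 72.9 CPM. Fbxw11 was above the NAc by 0.20 on the log2 scale (SE 0.047, adjusted p = 1.7e-04, edgeR), a fold of 1.14 that was under the limit, and higher in 15 of 19 mice. With the covariate for mitochondrial ribosomal RNA this difference was 0.42 and passed the fold. Between the SCN and PFC, Fbxw11 differed by 0.023 (approximate 95% interval -0.08 to 0.13). Btrc differed from the NAc by 0.0035 (-0.09 to 0.10), with 10 of 19 mice higher, and from the PFC by 0.12 (SE 0.054, adjusted p = 0.041, edgeR), a fold of 1.09. Its sign against the NAc changed with the libraries included. Against the PFC it was -0.037 in the lower range of mice and -0.011 with the mitochondrial covariate, and the difference between the ranges, 0.26, had an unadjusted p of 0.016 and an adjusted p of 0.33 in edgeR's test. Of the 5 members, Btrc had the region medians closest together, and Gsk3b and Csnk1d differed in opposite directions between the SCN and the other regions.

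Set as ratios within a library, the paralogs shifted by region. These ratios of CPM per kb were chosen after the values were seen and are given without a test. Csnk1d over Csnk1e had an SCN median of 1.94 (1.56 to 2.57), an NAc median of 1.47 (1.03 to 1.88) and a PFC median of 1.12 (0.923 to 1.30). The SCN ratio exceeded that of the PFC in 12 of 12 mice and that of the NAc in 18 of 19, and the NAc ratio exceeded that of the PFC in 16 of 17. Gsk3b over Gsk3a, the gene of glycogen synthase kinase 3 alpha, was highest in the NAc, with a median of 1.92 (1.38 to 2.88) against 1.22 in the SCN and 1.29 in the PFC, and the NAc exceeded the SCN in all 19 mice and the PFC in 17 of 17. Btrc over Fbxw11 had medians of 0.162, 0.199 and 0.162 in the SCN, NAc and PFC. The size of each ratio rests on the merged exon lengths, which are the same in every region.

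**Figure D3:**
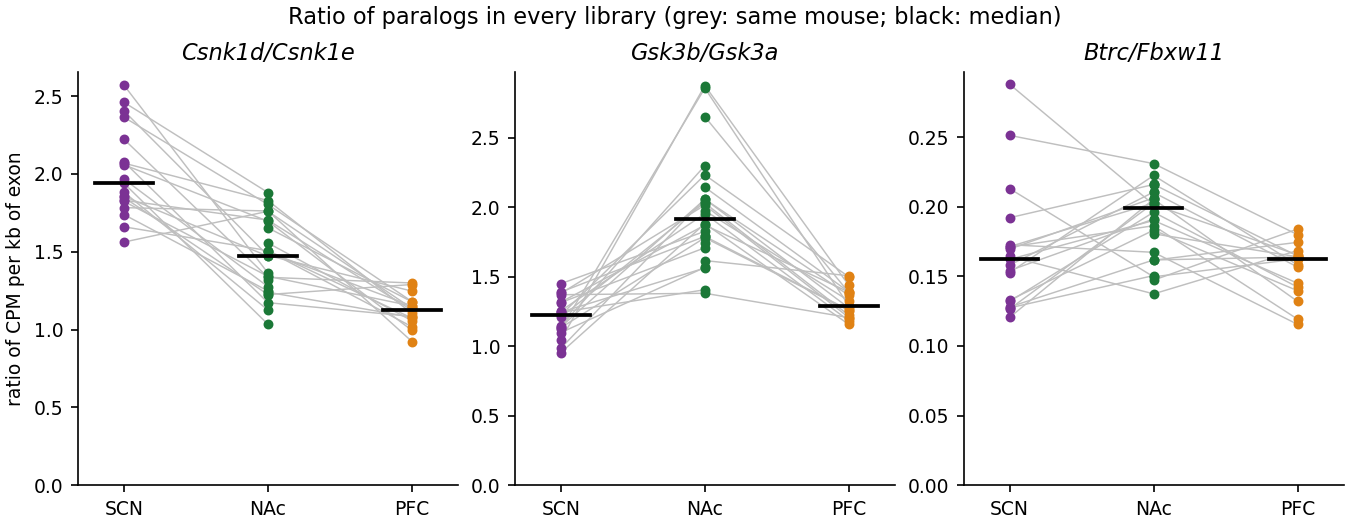
Ratio of paralogs within each library, in CPM per kilobase of exon, for Csnk1d over Csnk1e, Gsk3b over Gsk3a and Btrc over Fbxw11; grey lines join libraries of a mouse and black bars are medians. The Csnk1d over Csnk1e ratio steps down from the SCN (median 1.94) through the NAc (1.47) to the PFC (1.12), whereas Gsk3b over Gsk3a peaks in the NAc (1.92).

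The spread across libraries was widest in the SCN for Gsk3b, with a coefficient of variation of 22.8%, and narrowest in the PFC for Csnk1d, with 6.82%. Spread was tested as the mean absolute deviation of log2 CPM from the region's median, over 15 comparisons with two-sided permutation tests. Csnk1e deviated by 0.213 in the NAc and 0.0974 in the PFC (permutation p = 0.0015, adjusted p = 0.017). Btrc deviated by 0.180 in the SCN and 0.0821 in the NAc (permutation p = 0.0023, adjusted p = 0.017), and Gsk3b by 0.252 in the SCN and 0.115 in the PFC (permutation p = 0.0056, adjusted p = 0.028). The other 12 comparisons did not pass. The Csnk1e comparison passed within the lower range of mouse numbers (permutation, adjusted p = 6e-04) but not within the upper (permutation, adjusted p = 0.39). Those of Btrc and Gsk3b passed in neither range. Their adjusted permutation p was 0.75 and 0.288 in the lower range and 0.345 and 0.37 in the upper. The direction of these differences was that of most rows, counted at any size of difference. Of the 11133 shared rows, 87.2% spread more widely in the NAc than the PFC. The shares were 57.5% for the SCN over the NAc and 91.5% for the SCN over the PFC. The share of rows with differences as large as those of the members is not given here. The median deviation over all rows was 0.211 in the SCN, 0.196 for the NAc and 0.138 for the PFC, so Csnk1e lay slightly above it in the NAc and below it in the PFC, and Btrc below it in every region. Without SCN J1157 and SCN J1159, 1 of 15 passed, that of Csnk1e. Btrc then deviated by 0.154 in the SCN (permutation p = 0.0091, adjusted p = 0.068) and Gsk3b by 0.204 (permutation p = 0.021, adjusted p = 0.103), still above the 0.0821 of the NAc and the 0.115 of the PFC. Leaving out SCN J1199 with SCN J1140 let 6 of 15 pass. SCN J1159 held the highest SCN value of Csnk1d, Csnk1e, Gsk3b and Btrc, and SCN J1017 the lowest of the same 4 genes.

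Within the NAc, Csnk1e and Fbxw11 ran against each other. Over the 26 NAc libraries their log2 CPM had a Pearson's r of -0.81 (permutation p = 1e-05, the smallest that 100000 resamples can give, adjusted p = 0.0003 over 30 relations) and a Spearman's rho of -0.81 (permutation p = 1e-05, adjusted p = 0.0003). Mice with lower numbers gave an r of -0.88 (n = 12), and those with upper numbers -0.78 (n = 14). Over all NAc mice it was -0.79 once the 2 libraries most distant from the Csnk1e median were removed. In the PFC the same pair had an r of -0.68 (permutation p = 0.0025, adjusted p = 0.0074), -0.69 without the 2 farthest libraries, and a rho of -0.58 (permutation p = 0.016, adjusted p = 0.058). In the SCN the r was -0.56 (permutation p = 0.013, adjusted p = 0.028) with a rho of -0.35 (permutation p = 0.141), but r was -0.11 without SCN J1157 and SCN J1159, on which that relation rests.

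Other pairs varied together in the SCN. Gsk3b and Btrc had an r of 0.86 over the 19 SCN libraries (permutation p = 2e-05, adjusted p = 0.0003) with a rho of 0.81 (permutation p = 8e-05, adjusted p = 0.0012), and 0.76 without SCN J1157 and SCN J1159. Csnk1e and Gsk3b had an r of 0.79 (permutation p = 5e-05, adjusted p = 0.0005) with a rho of 0.78 (permutation p = 0.00018, adjusted p = 0.0018), and 0.60 without those libraries. The casein kinases Csnk1d and Csnk1e had an r of 0.73 (permutation p = 0.00041, adjusted p = 0.0026), a rho of 0.71 (permutation p = 0.00105) and an r of 0.57 without them. Csnk1e and Gsk3b were related in the other direction in the NAc, with an r of -0.51 (permutation p = 0.0072, adjusted p = 0.017) and a rho of -0.52 (permutation p = 0.0061); r was -0.47 and no longer passed without the 2 farthest libraries. Of 30 relations among members, 18 passed, 9 of the SCN, 3 of the NAc and 6 of the PFC, and 6 of the 30 passed without the 2 farthest libraries. Pairs of other genes were not tested in this way, so the share of all pairs that would pass is not known. In the lower range, with 7 libraries in the SCN and PFC, 1 passed.

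The levels of Csnk1e and Fbxw11 in the NAc also moved with what else the punch held. Csnk1e had an r of 0.86 with a score of 5 cortical glutamatergic genes (permutation p = 1e-05, adjusted p = 0.00015 over 60 relations) and a rho of 0.85 (permutation p = 1e-05, adjusted p = 0.0003). It was 0.89 in the lower range, 0.82 in the upper range and 0.81 without the 2 farthest libraries. J1140, with the highest Csnk1e in the NAc, had 269.8 CPM of these markers, and J965, with the lowest, had 8.22 CPM, the lowest sum in the region. Csnk1e had an r of -0.80 with the share of mitochondrial ribosomal RNA (permutation p = 1e-05, adjusted p = 0.00015) and Fbxw11 an r of 0.81 (permutation p = 1e-05, adjusted p = 0.00015), with rho of -0.77 and 0.75 (permutation p = 2e-05 for each), and r of -0.72 and 0.73 without the 2 farthest libraries. With an astrocyte score, Csnk1e had an r of 0.70 (permutation p = 0.00012, adjusted p = 0.001) and Fbxw11 one of -0.75 (permutation p = 1e-05), with rho of 0.68 and -0.74. In the upper range these were 0.59 and -0.47, and neither passed. The measures overlap in part. NAc J965, J1019 and J1018 had the highest shares of mitochondrial ribosomal RNA (69.3%, 68.7% and 65.3%) and the lowest astrocyte scores. Their cortical scores were -1.90, -1.51 and -0.90. J1014, next in that share with 60.4%, had an astrocyte score of 0.77. Relations between the measures were not tested, so those above cannot be taken as separate. As the cortical markers also differ between the NAc and PFC, their part in the lower NAc level of Csnk1e was not tested. With mitochondrial ribosomal RNA as a covariate, that log2 difference was -0.37 and passed.

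**Figure D4:**
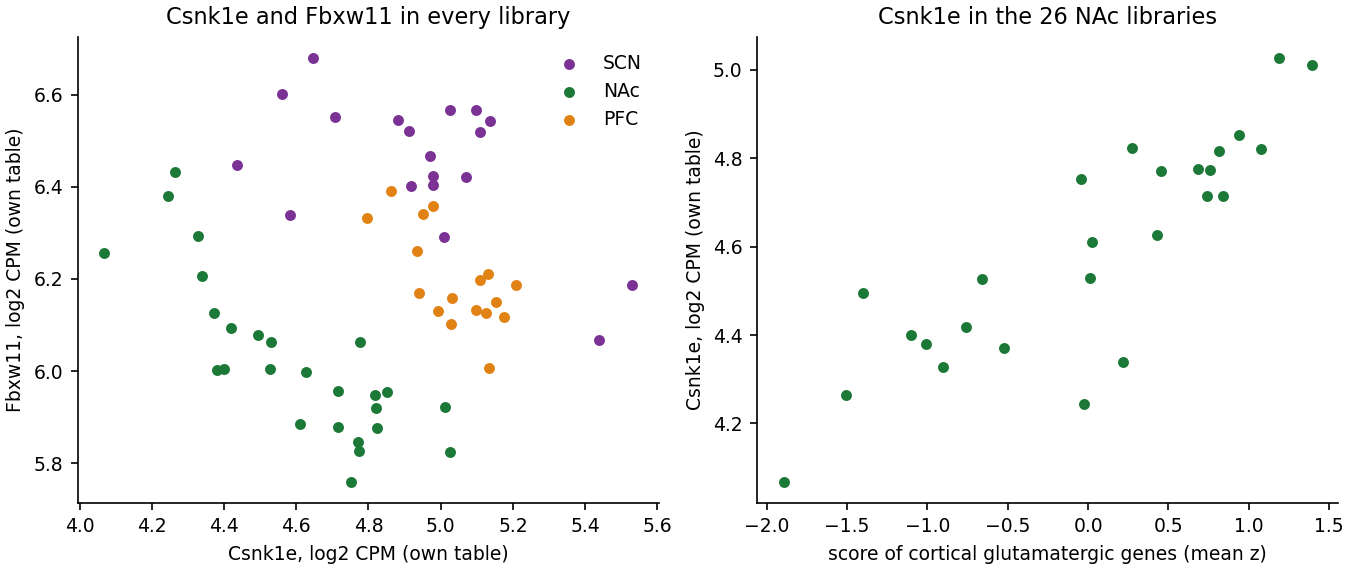
Left, log2 CPM of Fbxw11 against log2 CPM of Csnk1e in every library, each on the scale of its own table; right, log2 CPM of Csnk1e against the mean z-score of 5 cortical glutamatergic genes in the 26 NAc libraries. The NAc points fall from upper left to lower right in the left panel (r = -0.81) and rise in the right panel (r = 0.86).

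In the SCN, all 5 members passed with the share of mitochondrial ribosomal RNA by r, with adjusted permutation p from 0.012 to 0.026. Relations with composition measures were tested for the members alone, so the share of all rows that would pass is not known. Csnk1d, Csnk1e, Gsk3b and Btrc had an r of -0.61, -0.59, -0.61 and -0.61, and Fbxw11 one of 0.68, while rho ranged from -0.50 for Csnk1d to 0.35 for Fbxw11 and none passed by rho. Without SCN J1157 and SCN J1159, which had both the lowest shares and the largest SCN totals, r ranged from -0.38 for Csnk1d to 0.15 for Fbxw11 and none passed. In the PFC, Csnk1e, Gsk3b and Btrc had an r of -0.81, -0.73 and -0.84 with that share and Fbxw11 one of 0.75 (adjusted permutation p from 0.00024 to 0.0069), and rho from -0.76 for Btrc to 0.65 for Fbxw11. Without the 2 farthest libraries r ranged from -0.68 for Btrc to 0.60 for Fbxw11, and none passed. Of 60 relations with such measures, 20 passed, and 5 of the 60, each of them of Csnk1e or Fbxw11 in the NAc, passed without the 2 farthest libraries. None of 15 relations of a member's level between regions of the same mice passed, with or without SCN J1165. The lowest permutation p among them was 0.037, adjusted to 0.447, for Csnk1e in the NAc and PFC (r = -0.51, n = 17), and it was the 1 with an unadjusted p under 0.05.

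**Figure D5:**
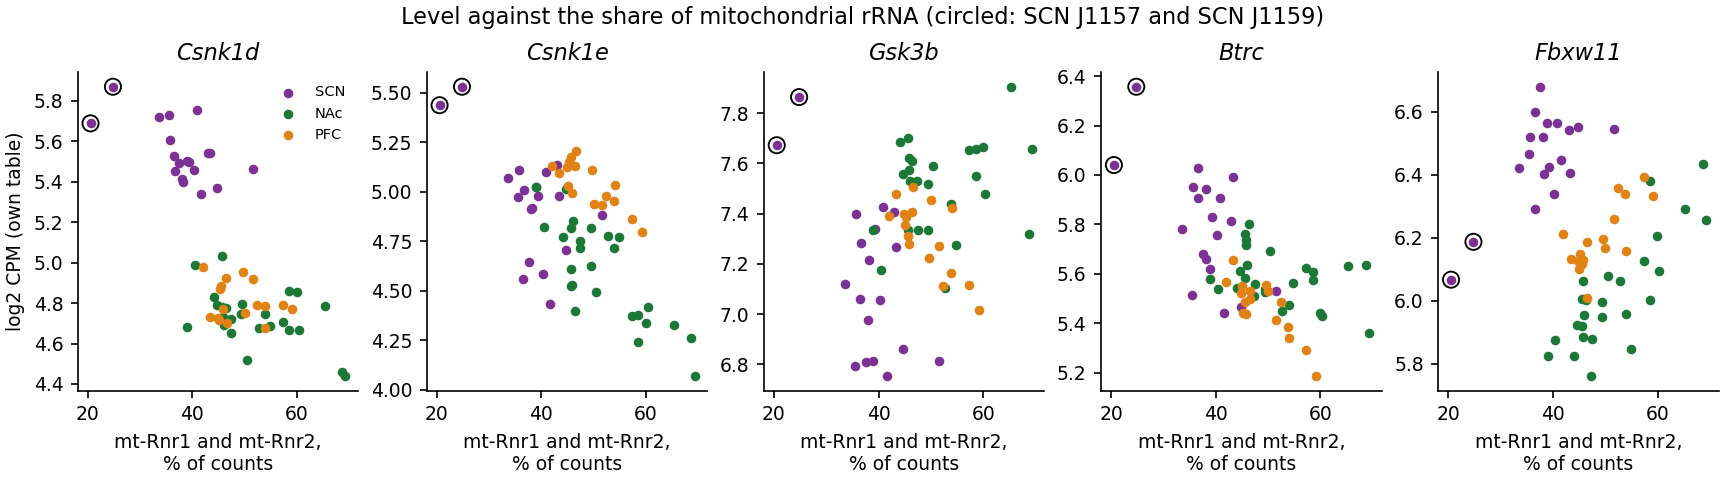
Log2 CPM of each member, on the scale of its own table, against the share of counts on mt-Rnr1 and mt-Rnr2 in percent, for every library; SCN J1157 and SCN J1159 are circled. The circled libraries lie apart at 20.5% and 24.8%, at the top of the SCN values of Csnk1e, Gsk3b and Btrc and at the bottom of those of Fbxw11.

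The genes whose levels most resembled each member over the 26 NAc libraries were named by a fixed number, as a description. Csnk1e was most like Cend1 (r = 0.96), Ppp5c (0.95) and Acot7 (0.95). Cend1 kept an r of 0.71 in the PFC and 0.72 in the SCN, whereas Ppp5c, the gene of a protein phosphatase, had 0.20 and -0.14. Among the genes most like Gsk3b were Mbd5 (0.88) and Braf (0.87), with an r of 0.83 and 0.69 in the PFC and 0.81 and 0.89 in the SCN. Fbxw11 was most like Setd3, Cdk8 and Agfg1 (0.93, 0.93 and 0.92), with 0.83, 0.79 and 0.65 in the PFC. For Csnk1d the nearest gene was Dhx37 (0.82, with 0.28 in the PFC and 0.39 in the SCN). For Btrc it was Man1c1 (0.74, with 0.083 in the PFC and 0.40 in the SCN). As all these genes were picked for their r in the NAc, a lower r elsewhere follows in part from the pick. It is not read as a contrast between regions. These points share libraries, depth and composition.

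Among 14 other genes, listed as kinases of clock proteins with related kinases and subunits, 7 were called lower and 2 higher in the NAc. The other 5 were not called against the PFC. Of all rows, 21.7% were called lower and 23.7% higher. The median log2 difference of the list was -0.22, beside 0.016 over all rows. Prkaa2, a catalytic subunit of the energy sensor AMPK, was lower in the NAc by 1.29 on the log2 scale (-1.29, SE 0.057, adjusted p = 2.3e-24, edgeR), with 18.1 to 40.3 CPM against 55.5 to 77.9 CPM, while its paralog Prkaa1 was higher by 0.41. Mapk8, which encodes the kinase JNK1, differed by -0.75, Csnk1g2 by -0.48 and Gsk3a by -0.36. Csnk1g1, another casein kinase 1 gene, was higher in the NAc by 0.34. The AMPK subunits thus lay on both sides, as did the casein kinase 1 family.

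Of 13 other ubiquitin ligase subunits, 11 were not called between the NAc and PFC, beside 54.6% of all rows. The exceptions were F-box genes. Fbxw7 ranged from 52.4 to 124 CPM in the NAc and 176 to 209 CPM in the PFC and was lower in the NAc by 1.36 on the log2 scale (-1.36, SE 0.076, adjusted p = 1.5e-20, edgeR). Fbxl21, whose protein acts on CRY, was higher in the NAc by 1.15 (SE 0.12, adjusted p = 1.3e-11, edgeR), with 3.23 to 10.5 CPM against 1.64 to 3.37 CPM, and it reached 4.46 to 19.9 CPM in the SCN. The list's median was -0.044.

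Of 9 phosphatases and deubiquitinases, which reverse these marks, Ppp1ca and Ppp1cc, encoding catalytic subunits of protein phosphatase 1, were higher in the NAc by 0.64 and 0.61 on the log2 scale. Ppp5c and Ppp2cb, of protein phosphatases 5 and 2A, were lower in the NAc, at -0.71 and -0.36, and 5 genes were not called, a share near that of all rows. Of 10 substrates, Cry1 was higher in the NAc by 0.78 and Per1 by 0.29, Arntl, which encodes BMAL1, was lower at -0.53 and Nr1d1 at -0.31, and 6 were not called, which is also near the share of all rows. The call of Per1 was lost in the lower range of mouse numbers, at 0.037, and with the mouse as a block, at 0.24.

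Against the SCN, the lists are read beside all rows, of which 33.1% were called higher and 31.0% lower than in the NAc, and 33.7% higher and 31.0% lower than in the PFC. Of the genes on the kinase list, 0 were higher and 4 lower in the SCN than in the NAc, and 1 higher and 8 lower than in the PFC. Of the ligase subunits, 3 were higher and 5 lower than in the NAc, and 3 higher and 4 lower than in the PFC. The phosphatases and deubiquitinases were lower in the SCN in 6 of 9 and 7 of 9, with 1 higher in each comparison, at list medians of -0.31 and -0.34 beside 0.016 and 0.032 over all rows. Of the 10 substrates, 3 were higher and 1 lower than in the NAc, and 4 higher and 3 lower than in the PFC. Mapk8 was among the genes lower in the SCN, with 15.6 to 27.9 CPM in the SCN and 76.7 to 94.3 CPM in the PFC.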

How the data were processed

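Gene counts of 62 libraries were used. The authors used the SmartSeq HT kit for libraries, sequenced paired ends of 75 bases, checked quality with FastQC 0.11.7, aligned reads to GRCm38 with HISAT2 and counted them with HTSeq in union mode. The deposited counts are raw, without normalization, for rows kept by a filter of the authors. They are in separate tables for the SCN (12047 rows) and for NAc with PFC (11569 rows). The study's methods describe a filter for each region on its own and give other row numbers, so these are not the row sets reported there. The annotation release is not given in the sources used here; positions, exon lengths and transcripts came from GENCODE M21, which matched 12454 of 12483 identifiers. Every row carried an Ensembl mouse gene identifier, and rows without a match had no symbol.

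The members and the gene lists were chosen with earlier results of these data known. For NAc against PFC, edgeR 4.0.16 was run (R 4.3.3, quasi-likelihood test, TMM, no further filter) on all rows of their table. The SCN was compared in a fit of all 3 regions on 11133 shared rows. Adjusted p-values are Benjamini-Hochberg over all rows. Fold changes and standard errors (from the F statistic) are log2, and approximate intervals are 1.96 SE. Relations and spread used log2 CPM (prior count 2) and two-sided permutation tests with 100000 resamples, exact under 10 libraries. Scores average the z-scores of a marker list. Named genes were the 5 members, up to 4 called genes a list and direction with the largest change between the NAc and PFC, and the 3 genes most like each member in the NAc; paralog ratios were added after their values were seen. A gene among those so named is not reported here.

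The mouse number in the labels was taken to pair libraries of the same animal across regions. The correlation of a mouse's deviations from the region means had a median of -0.0035 for the NAc and PFC, 0.0014 for the SCN and NAc and 0.099 for the SCN and PFC. It exceeded 0.1 in 8 of 17, 3 of 19 and 6 of 12 mice in that order, so the pairing rests on the labels. Mouse numbers up to 1021 and from 1140 were treated as possible batches. No pair of libraries agreed within sampling noise, with a lowest chi-square per gene of 13.1. In counts simulated for the NAc and PFC, edgeR recovered 98 of 100 genes changed 1.5-fold and called 4 that were unchanged. Few genes were changed there, equally up and down, whereas 45.4% of rows were called between the NAc and PFC. The error rate when so many rows differ was not tested. Alternatives were DESeq2 1.42.0, its size factors, a CPM filter, the mouse as a block, each range, the fits without rRNA genes and without named libraries, and, added after the data were seen, a covariate for mt-Rnr1 and mt-Rnr2, the fits without SCN J1157 and SCN J1159, and the block and relations without SCN J1165. Python 3.11.15 was used outside R. Intervals cover the spread between libraries alone. Effects of CRD and sex were not analysed here.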

Additional observations from a re-analysis of the deposited data

How the results depend on the processing

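The number of members called between the NAc and PFC was 1 and between the SCN and NAc 2 or 3 under every alternative run. Between the SCN and PFC it was 3, but 1 for mice of the upper range; with the mouse number as a replicate block it was 1 for the NAc and PFC, 2 for the SCN and NAc and 2 for the SCN and PFC, where Csnk1e was lost with the block and in the same mice unblocked (with the block and without SCN J1165 the counts were 2 and 2), and the block changed no other member's call. The filter at 1 CPM removed 0 rows and says nothing of stability. Of differences under the fold limit, Btrc between the SCN and NAc was -0.051 in the lower range, -0.0065 without SCN J1199 and SCN J1140, -0.0080 without SCN J1165, -0.039 without SCN J1157 and SCN J1159, -0.0090 with the block and without SCN J1165, and -0.16 with the mitochondrial covariate, and Csnk1e was -0.20 with that covariate. Between the SCN and PFC, Fbxw11 was -0.031 when blocked by mouse, -0.022 when SCN J1165 was left out of that, -0.026 for those mice unblocked and -0.032 for the upper range, and Btrc -0.037 in the lower range and -0.011 with the covariate. The causes were not tested.

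Passed relations among members numbered 1 for the lower range and 10 for the upper, 6 by Spearman's rho, 6 without the 2 farthest libraries and 10 without SCN J1157 and SCN J1159, and those with composition measures 5, 12, 10 and 5 for the first 4 of these. In the lower range, Btrc and Fbxw11 in the SCN had an r of 0.30 and Gsk3b and mitochondrial rRNA there one of 0.081, against negative values in all libraries. Passed differences of spread numbered 1 in the lower range, 0 in the upper range (12 SCN, 14 NAc and 10 PFC libraries), 6 without SCN J1199 and SCN J1140 and 1 without SCN J1157 and SCN J1159. The lower range has 7 libraries in the SCN and in the PFC, so that fewer relations could pass there.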
